A study of Mus musculus with 3 samples.

Results

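Polycomb repressive complex 1 (PRC1) was examined through 9 genes for its subunits, chosen by name: Bmi1, Pcgf1, Pcgf2, Pcgf5, Pcgf6, Cbx2, Cbx7, Cbx8 and Rnf2. They are 9 of 24421 gene symbols counted by RNA sequencing in mouse hematopoietic stem and progenitor cells (HSPCs). There were 3 control libraries from bone marrow of C57BL/6 mice with the genotype Cicflox/flox and tamoxifen. The floxed alleles and the drug were common to all 3 libraries, and the labels used here name no Cre driver, age or sex and do not say that each library came from its own mouse. Cells were enriched on c-Kit beads, then sorted as lineage-negative, c-Kit-positive and Sca-1-positive. The knockout group of the series was not analysed here, so no contrast between genotypes is given, and libraries are called 1, 2 and 3 after the replicate number in their titles.

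PRC1 is a chromatin complex that attaches ubiquitin to histone H2A and helps keep developmental genes silent. Every form of it pairs a catalytic RING protein (Ring1 or Rnf2, also called Ring1b) with a PCGF protein. Canonical forms hold Bmi1 or Pcgf2 (Mel18) together with a CBX protein, whose chromodomain reads the methyl mark that PRC2 places on histone H3. Variant forms hold a PCGF protein, not only one of the others, with Rybp or Yaf2 in place of CBX. In blood, Bmi1 is known as a gene that stem cells need to renew themselves, and Cdkn2a is the best known gene that it represses.

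Gene counts summed to between 25097769 and 30718562 per library. Counts were scaled to CPM on each library's total of gene counts and are given as mean ± SD over 3 libraries. For comparisons between genes, CPM were divided by the kilobases of merged annotated exons. A count of 0 allows between 0.0977 and 0.120 CPM, depending on the library (3 counts each, covering counting error only). Both genes of the positive sort were expressed, the c-Kit gene Kit at 826 ± 71.0 CPM and the Sca-1 gene Ly6a at 103 ± 9.50 CPM, while 5 T cell genes summed to 16.2, 5.54 and 8.39 CPM in libraries 1, 2 and 3. Most of that sum was Cd4, at 15.2, 5.02 and 6.69 CPM, and the T cell receptor genes Cd3e and Cd3d had 0, 0 and 2 counts and 22, 0 and 36 counts. Myeloid genes differed between libraries. All 10 neutrophil and granule genes were detected, and their summed level was 977, 1877 and 2998 CPM, but Mpo alone held 683, 1544 and 2403 CPM of this, and the other 9 summed to 294, 333 and 595 CPM. Mpo, Elane, Prtn3 and Ctsg were lowest in library 1 and highest in library 3, while Ngp, S100a8, S100a9, Lcn2 and Ltf were highest in library 1 and lowest in library 2. The summed level of 6 erythroid genes was 48.0, 96.6 and 127 CPM, and without Car1 it was 31.8, 35.0 and 28.0 CPM. These sums mix directions: Slc4a1 was highest in library 1, at 13.2, 1.43 and 2.46 CPM, while the other 5 were lowest there. What part such cells had in the values below was not tested, and in bulk RNA fewer cells of a type cannot be told apart from less RNA per cell.

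All 9 genes reached a mean of 1 CPM, as did 53.1% of all gene symbols. Their median level was 33.8 CPM, against 25.9 CPM over the 12965 genes at 1 CPM or more, and per kilobase it was 5.28, against 6.45 for genes at that minimum. The members therefore lay near the middle of expressed genes, spread from Cbx8 near the bottom (percentile 8.58 per kilobase) to Bmi1 in the upper part (percentile 78.5).

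**Figure D1:**
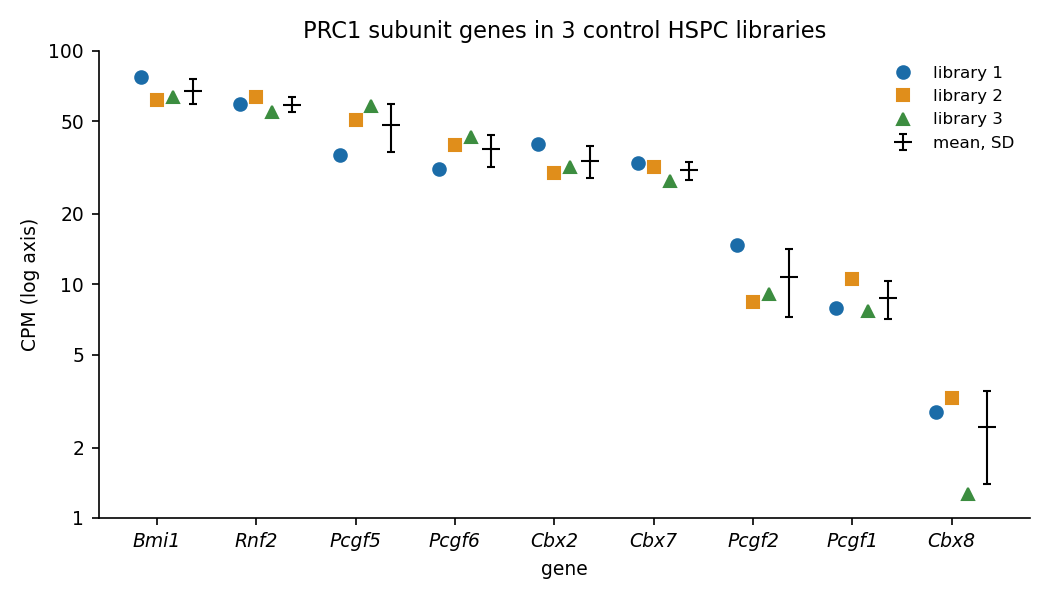
Levels of the 9 PRC1 subunit genes, ordered by mean. The y axis is CPM on a log scale, each coloured point is a library, and the black bar is the mean with its SD over 3 libraries. Bmi1 and Rnf2 lay highest at 67.4 and 58.9 CPM, and Cbx8 lay lowest at 2.45 CPM.

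The promoters of some members hold letters that bear on a partner of PRC1. Mga and Max, which belong to the variant complex built on Pcgf6, bind the E-box CACGTG. This word, which reads the same on both strands, was found in the promoter windows of 3 members, namely Bmi1, Pcgf2 and Cbx8, of 7 members with a window in the table. A window runs from 250 bases before to 50 after a RefSeq start site (GRCm38.p6). Of 32851 such windows from all genes, 7.15% hold the word. Some genes have several windows, Pcgf5 among them, so a share of members and a share of windows are unlike measures. The stretches around it are shown because these genes include the highest and the lowest member. Sequences are from RefSeq, read 5′ to 3′ on the gene's strand, with the E-box in capitals:
Bmi1 (plus strand, chr2:18676776-18676835): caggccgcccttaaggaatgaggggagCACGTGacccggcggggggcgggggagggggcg
Pcgf2 (minus strand, chr11:97699753-97699812): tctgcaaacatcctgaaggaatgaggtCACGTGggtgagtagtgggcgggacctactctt
Cbx8 (minus strand, chr11:119040979-119041038): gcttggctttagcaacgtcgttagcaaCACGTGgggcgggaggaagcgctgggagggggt
None of the 3 stretches touches an exon annotated in GENCODE M21. The E-box begins 215 bases before the start site in Bmi1, 137 in Pcgf2 and 98 in Cbx8. Bmi1, at the top of the members' order, and Cbx8, at its foot, thus share the word. The stretches of the paralogs Bmi1 and Pcgf2 also share the 11 letters AAGGAATGAGG, a few bases upstream of the E-box in both. That run, or its reverse CCTCATTCCTT, occurs in 14 of the 32851 windows, and it was picked after the sequences were compared. A match of letters is a description and does not show that a protein binds there. The E2F-type word TTCCCGC or its reverse GCGGGAA was found in 1 member, Pcgf5, and in 4.60% of all windows. The word CCAAT or its reverse ATTGG was in Cbx7, Cbx8 and Pcgf5 and in 37.4% of all windows.

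Of the RING genes, Rnf2 outweighed its paralog. Rnf2 (chromosome 1, 151458004 to 151500955, minus strand, mm10) encodes the main catalytic subunit that ubiquitinates H2A. It was counted at 59.0, 63.1 and 54.5 CPM in libraries 1, 2 and 3, a mean of 58.9 ± 4.30 CPM. Its values lay close together, with the highest library 1.16 times the lowest, the narrowest range of the 9 members.

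Ring1, the other catalytic gene (chromosome 17), lay at 19.1, 19.8 and 24.6 CPM. Per kilobase of exons Rnf2 was at 14.3 ± 1.04 and Ring1 at 6.53 ± 0.929, so Rnf2 made up 68.6 ± 4.43% of the RING sum. The log2 difference was 1.13 (SD 0.29), or 2.19-fold, with Rnf2 higher in 3 of 3 libraries. The exact two-sided sign-flip permutation test over libraries gave p = 0.25, and 0.25 after Benjamini-Hochberg adjustment over the 9 paralog pairs compared. With 3 libraries no lower p is possible, so none of the pair differences described here can pass 0.05.

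Rnf2 shares 158 exon bases with Trmt1l, a gene on the opposite strand. Reads from that overlap cannot be told apart without strand.

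The PCGF gene at the highest level, in CPM and per kilobase of merged exons, was Bmi1 (chromosome 2, 18677018 to 18686629, plus strand), which defines a canonical complex. It was counted at 76.9, 61.8 and 63.5 CPM, or 67.4 ± 8.26 CPM. Library 1 lay above the other two, which were within 3 CPM of each other.

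Pcgf2, which encodes Mel18 and can take the place of Bmi1 (chromosome 11, 97688823 to 97700497, minus strand), was at 14.7, 8.37 and 9.06 CPM. Its mean was 10.7 ± 3.50 CPM, with library 1 again above the rest. Exact Poisson 95% intervals, which cover counting error only, ran from 13.4 to 16.2 CPM in library 1 and from 7.27 to 9.58 CPM in library 2, so the gap between those libraries exceeded counting error.

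Per kilobase, Bmi1 lay at 16.95 ± 2.08 and Pcgf2 at 3.04 ± 0.993. The log2 difference was 2.52 (SD 0.27), or 5.73-fold, with Bmi1 higher in every library (exact p = 0.25). Bmi1 shares 16.7% of its 50-base words with other annotated genes, chiefly Gm5946, against 0.847% for Pcgf2. Reads from such words could be lost or misplaced. Commd3, the neighbour of Bmi1 on the same strand, ends 786 bases before it and shares no exon.

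Among the PCGF genes of variant complexes, Pcgf1, whose complex holds Bcor and Kdm2b (chromosome 6, 83077869 to 83080855, plus strand), was at 7.94, 10.5 and 7.66 CPM, with library 2 the highest. Its mean was 8.71 ± 1.58 CPM, and it shares 15.3% of its 50-base words with the annotated gene Gm8930.

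Pcgf5, whose complexes hold Auts2 or Fbrs proteins (chromosome 19, 36348309 to 36460970, plus strand), was at 35.9, 50.5 and 57.7 CPM, a mean of 48.0 ± 11.1 CPM. Pcgf6, the PCGF protein of the complex with Mga and L3mbtl2 (chromosome 19, 47033617 to 47050906, minus strand), was at 31.1, 39.6 and 42.6 CPM, a mean of 37.8 ± 5.99 CPM. Both were lowest in library 1 and highest in library 3. Mpo, Elane, Prtn3 and Ctsg lay in the same library order, whereas 5 other granule genes were highest in library 1, and their part in this was not tested. Among all genes at 1 CPM or more, library 1 was the lowest for 44.3% and library 3 the highest for 32.5%.

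Per kilobase of merged exons, Pcgf6 lay at 7.52 ± 1.19, Pcgf1 at 5.28 ± 0.956 and Pcgf5 at 3.804 ± 0.880. Pcgf6 exceeded Pcgf5 by 1.00 (SD 0.12) in log2 and Pcgf1 by 0.51 (SD 0.31), and Pcgf1 exceeded Pcgf5 by 0.49 (SD 0.40), each with the same sign in all 3 libraries (exact p = 0.25 for each). The last of these was 0.02 in library 3, so Pcgf1 and Pcgf5 were hardly apart there. These orders depend on which length is used. Pcgf5 has 12629 bases of merged exons but only 768 bases of coding sequence. Divided by coding length, Pcgf5 exceeded Pcgf1 by 2.47 and Pcgf6 by 0.80 in log2, and with no length correction by 2.45 and 0.33. Bmi1 exceeded Pcgf1 by 1.69 (SD 0.37) per kilobase of merged exons in 3 of 3 libraries (exact p = 0.25), and by 0.99 over the longest transcript.

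**Figure D2:**
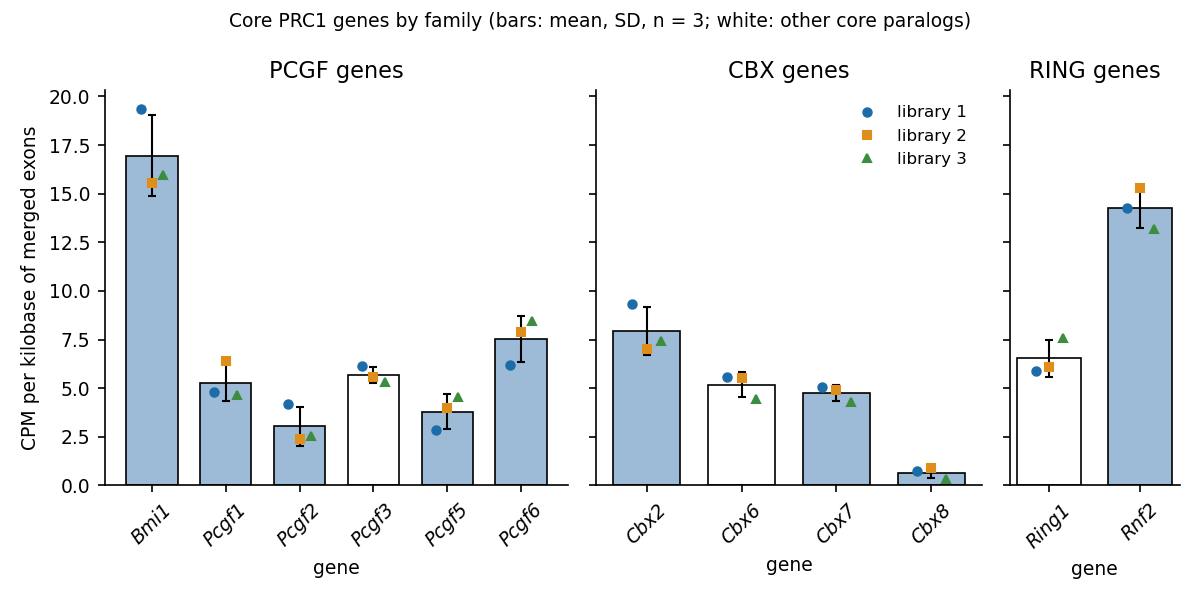
CPM per kilobase of merged exons for the PCGF, CBX and RING genes. Bars are means with SD over 3 libraries, points are libraries, blue bars are the 9 listed subunits and white bars the core paralogs Pcgf3, Cbx6 and Ring1. Bmi1 at 16.95 and Rnf2 at 14.3 stand above the other genes drawn, and Cbx8 at 0.668 stands below them.

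Within the PCGF family of 6 genes, which also includes the variant complex gene Pcgf3 at 54.3 ± 3.88 CPM, Bmi1 made up 40.03 ± 3.88% of the sum per kilobase. Pcgf6 made up 17.8 ± 3.22%, Pcgf3 13.4 ± 0.632%, Pcgf1 12.5 ± 2.40%, Pcgf5 9.03 ± 2.28% and Pcgf2 7.16 ± 2.14%. Bmi1 and Pcgf2, the pair that canonical forms draw on, together held 54.1, 42.9 and 44.6% in libraries 1, 2 and 3. They thus exceeded the 4 other PCGF genes together only in library 1. Over coding length Pcgf3 held more than Bmi1, 28.4% against 26.3%. Over the longest transcript the mean share of the pair was 38.2%, and over coding length 30.2%, against 47.2 ± 6.02% over merged exons. The sum of the family itself varied little, at 43.5, 41.8 and 41.6 CPM per kilobase.

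**Figure D3:**
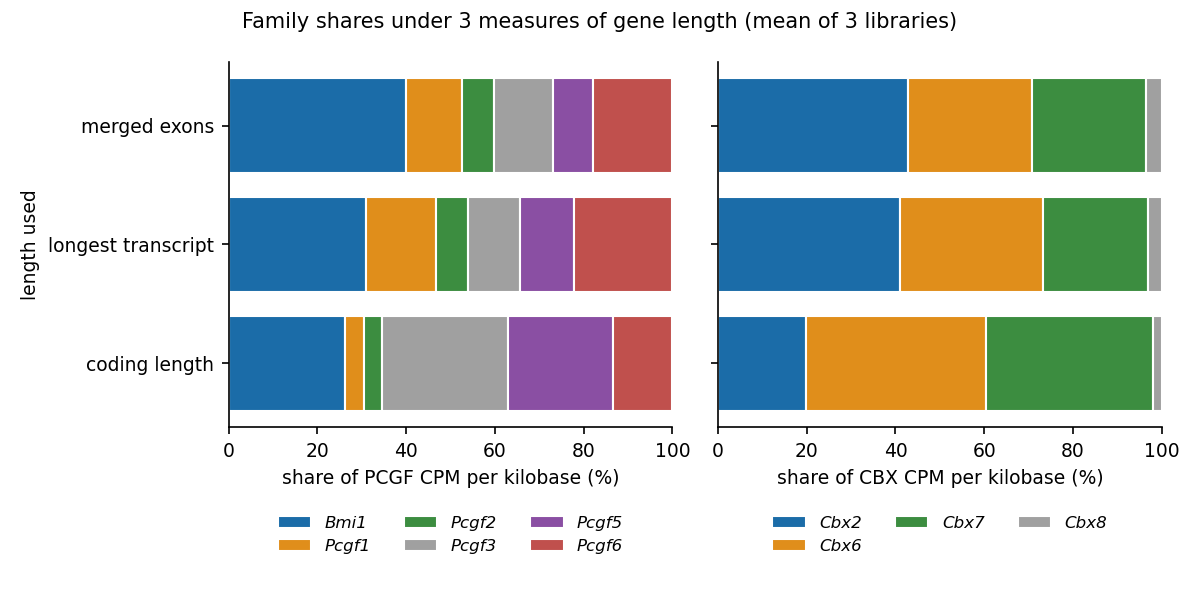
Share of each gene in the summed CPM per kilobase of the PCGF family (left) and of 4 CBX genes (right), as the mean of 3 libraries, under 3 measures of gene length. The x axis is percent of the family sum. The Bmi1 share moves from 40.03% over merged exons to 26.3% over coding length, and the Cbx2 share from 42.8% to 19.9%, while Cbx8 moves from 3.55% to 2.03%.

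The CBX genes were led by Cbx2 per kilobase. Cbx2 (chromosome 11, 119022962 to 119031270, plus strand), whose protein compacts chromatin, was at 39.7, 30.0 and 31.6 CPM, or 33.8 ± 5.20 CPM. As for Bmi1 and Pcgf2, library 1 was the highest and library 2 the lowest. Of the 10 neutrophil and granule genes, 5 lay in that order too, among them Ngp at 80.1, 15.4 and 34.1 CPM, while Mpo, Elane, Prtn3 and Ctsg lay otherwise, lowest in library 1. Their part was not tested. Among all genes at 1 CPM or more, library 1 was the highest for 31.9% and library 2 the lowest for 23.6%.

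Cbx7 (chromosome 15, 79915807 to 79971119, minus strand), the CBX gene linked to self-renewal of blood stem cells, was at 32.9, 31.8 and 27.7 CPM, or 30.8 ± 2.75 CPM. The 3 libraries lay within 1.19-fold of each other. Cbx7 shares 100 exon bases with Apobec3 on the opposite strand.

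Cbx8 (chromosome 11, 119036305 to 119040969, minus strand) encodes another CBX protein of canonical PRC1. It had only 87, 82 and 38 counts, or 2.83, 3.27 and 1.27 CPM, a mean of 2.45 ± 1.05 CPM. Library 3 was the low one: its exact Poisson 95% interval ran from 0.895 to 1.74 CPM, under the interval of library 1 from 2.27 to 3.49 CPM. Cbx8 lies 5034 bases from Cbx2, its neighbour on the opposite strand, and no exon of theirs overlaps.

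Per kilobase, Cbx2 was at 7.93 ± 1.22, Cbx7 at 4.75 ± 0.424 and Cbx8 at 0.668 ± 0.287. Cbx2 exceeded Cbx8 by 3.67 (SD 0.73) in log2, or 12.7-fold, and Cbx7 exceeded Cbx8 by 2.94 (SD 0.62), or 7.66-fold. Both differences had the same sign in 3 of 3 libraries and under every length tried, with an exact p of 0.25 for each. Cbx2 exceeded Cbx7 by 0.73 (SD 0.19), or 1.66-fold, in 3 of 3 libraries (exact p = 0.25). Over coding length that order turned, with Cbx7 higher by 0.92, and without any length correction Cbx2 was higher by only 0.13.

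Cbx6, another CBX gene of PRC1, was expressed at 55.0 ± 6.94 CPM. Per kilobase it lay at 5.18 ± 0.654, close to Cbx7. Of the sum per kilobase of the 4 CBX genes given here, Cbx2 held 42.8 ± 3.87%, Cbx6 27.97 ± 1.92%, Cbx7 25.7 ± 1.11% and Cbx8 3.55 ± 1.38%.

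Across all 9 members the order per kilobase ran Bmi1, Rnf2, Cbx2, Pcgf6, Pcgf1, Cbx7, Pcgf5, Pcgf2 and Cbx8. Bmi1 lay above Rnf2 by 0.25 (SD 0.21) in log2, but by only 0.02 in library 2, where Rnf2 was the higher in CPM, so these neighbours are hardly apart there. Rnf2 lay above Cbx2 by 0.86 (SD 0.25), with no overlap between libraries. From Cbx2 down to Pcgf2 every neighbouring pair had overlapping library values, so neighbours among these 6 genes are not placed firmly. Genes further apart could be separate, as Cbx2 was at 7.04 or more in every library and Cbx7 at 5.08 or less. Compared within each library, Pcgf6 exceeded Pcgf1 in 3 of 3. Pcgf2 lay above Cbx8 by 2.25 (SD 0.76) with no overlap. Bmi1 was first and Cbx8 last under all 5 length settings, while Pcgf5 ranged from place 2 over coding length to place 7 over merged exons.

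The libraries differed in most members beyond counting noise. By a chi-square test of each count, 9 of 9 members differed between libraries at an adjusted p under 0.05, but so did 82.6% of all genes tested, so this count says nothing particular about PRC1. Adjusted p-values of this test ran from 1.32e-33 for Pcgf5 to 0.000981 for Cbx7. Without library 1, 5 members passed (Pcgf1, Pcgf5, Cbx7, Cbx8 and Rnf2), with 51.4% of all genes.

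In size, 3 of 9 members had a highest library over 1.5 times the lowest, against 28.2% of all genes. These were Cbx8 at 2.58-fold, Pcgf2 at 1.76-fold and Pcgf5 at 1.61-fold. The median over members was 1.37-fold, against 1.29-fold over all genes. Without library 1 Cbx8 alone of the members exceeded 1.5-fold, against 11.6% of all genes, and without library 3 Pcgf2 alone did, against 17.9%.

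None of the 9 members was called more variable than genes of similar abundance by edgeR's quasi-likelihood fit, where 0.00771% of genes (1 gene, Elane) passed. With so few calls, the test does not show that the members vary no more than the trend. Also at an unadjusted p under 0.05, 0 of 9 members and 593 of 12965 genes lay past the threshold. Without library 2, 1 of 9 members and 591 of 12941 genes did at that unadjusted level. Pcgf5 had the largest spread of the members in that fit, at 3.91 times the trend, followed by Pcgf2 at 2.81 times, and the lowest edgeR adjusted p of any member was 0.983, or 0.951 over all settings tried.

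**Figure D4:**
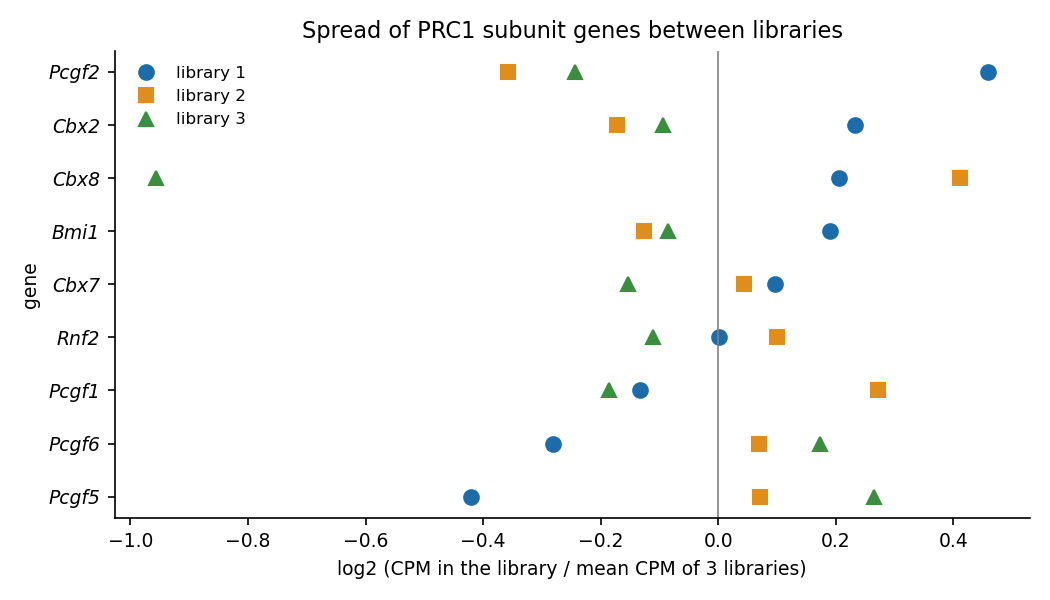
Each library's CPM over the mean of the 3 libraries, on a log2 scale, for the 9 members ordered by library 1. Library 1 (blue circles) lies to the right for Pcgf2, Cbx2, Cbx8, Bmi1 and Cbx7, to the left for Pcgf5, Pcgf6 and Pcgf1, and near the mean for Rnf2. The leftmost point is Cbx8 in library 3, at 1.27 CPM.

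By library, 4 members were highest in library 1 (Bmi1, Pcgf2, Cbx2 and Cbx7), 3 in library 2 (Pcgf1, Cbx8 and Rnf2) and 2 in library 3 (Pcgf5 and Pcgf6). The shares over all genes were 31.9%, 35.6% and 32.5%. The summed CPM of the 9 genes hardly varied, at 301, 299 and 296. This holds for CPM only. Set against 10000 counts of the ERCC spike-ins, the sum was 203, 313 and 508 counts, lowest in library 1.

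Partners of canonical PRC1 were expressed beside the members. Each of the 5 accessory genes listed passed 1 CPM, and their median was 74.5 CPM. The Polyhomeotic genes, whose proteins join complexes into larger assemblies, were led per kilobase by Phc1 at 16.4 ± 0.631 and Phc3 at 14.1 ± 0.834, close to Bmi1 and Rnf2. Scmh1 followed at 9.64 ± 0.917, and Phc2 and Scml2 were the lowest at 2.87 ± 0.654 and 2.15 ± 0.199. The order of Phc1 and Phc3, and their closeness to Bmi1 and Rnf2, depend on length. In CPM Phc3 was at 246 ± 14.6 and Phc1 at 86.9 ± 3.34, against 67.4 for Bmi1 and 58.9 for Rnf2. Phc3 has 17485 bases of merged exons but only 2943 bases of coding sequence. Of the 5 genes, 4 differed between libraries by the chi-square test, against 82.6% of all genes.

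The 21 partners of variant PRC1 passed 1 CPM as well, and their median was 79.0 CPM, or 16.3 per kilobase. The highest were Max at 76.5 ± 5.95, Tfdp1 at 76.3 ± 8.51 and Hdac1 at 58.5 ± 2.64 CPM per kilobase, genes whose proteins also serve outside PRC1. The lowest were Fbrsl1 at 1.45 ± 0.351 and Auts2 at 0.411 ± 0.0698, both partners of Pcgf3 and Pcgf5. By the chi-square test 19 of 21 differed between libraries, against 82.6% of all genes. None of the listed partners passed the edgeR test.

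Genes whose proteins remove ubiquitin from H2A were all present too. Each of 5 such genes passed 1 CPM (median 78.4 CPM), from Mysm1 at 16.7 ± 0.573, Usp3 at 15.8 ± 0.600 and Bap1 at 9.68 ± 1.57 CPM per kilobase down to Usp16 at 8.29 ± 1.22 and Usp21 at 7.42 ± 0.494. By the chi-square test 5 of 5 differed between libraries, beside 82.6% of all genes, and none passed the edgeR test.

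Genes known to be held silent by PRC1 in various tissues were mostly without counts. Of 12 listed, 2 reached 1 CPM and 7 had no count in any library, namely Cdkn2a, Gata4, Gata6, Sox1, Neurog1, Hoxc13 and Hoxd13. Among all symbols 7093 of 24421 had no count. Cdkn2a, the cell cycle inhibitor gene that Bmi1 represses, therefore lay under 0.120 CPM in each library by counting error. Its neighbour Cdkn2b had 17, 0 and 0 counts, all in library 1. The B lineage genes Ebf1 and Pax5, which Bmi1 is known to hold down in early progenitors, were detected at 9.73, 10.5 and 14.1 CPM and at 2.38, 2.79 and 4.90 CPM. Both were by the chi-square test among the genes that differed between libraries, as were 82.6% of all genes tested, and neither passed the edgeR test. The sort removed cells with B220, a surface marker of B cells. The 3 B cell genes set beside these summed to 36.2, 39.4 and 37.2 CPM, with Cd79a at 11.6 ± 1.06 CPM, Cd79b at 24.6 ± 2.63 CPM and Ms4a1 at 2.51, 1.24 and 0.366 CPM. The part of committed B cells in the levels of Ebf1 and Pax5 was not tested.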

How the data were processed

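Each library has a deposited file of unnormalized read counts by gene symbol. Its 92 ERCC spike-in rows and 5 HTSeq category rows were kept out of totals and tests. TopHat2 2.0.9, HTSeq, DESeq2 and mm10 are named in the submitters' processing notes. For the gene model and the strand of counting, nothing is given in the sources used here. Per the labels' protocols, 10 ng of RNA was turned into cDNA with poly(A) and random primers and amplified, so counts are not independent molecules. Gene counts made up between 34.1% and 40.0% of all entries.

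CPM used gene totals. Lengths, positions and shared 50-base words came from GENCODE M21 (GRCm38, the assembly of mm10), with a length for 95.5% of symbols. Genes averaging 1 CPM or more were tested in 2 ways: a chi-square test on counts (2 degrees of freedom), and edgeR's quasi-likelihood fit (TMM, intercept only, robust), where an F test set a gene's quasi-dispersion against the trend. Both used Benjamini-Hochberg adjusted p under 0.05 and were checked on simulated data. Paralog pairs were compared by an exact sign-flip test. Replicates may be technical, so p-values measure only the spread between these libraries. Members, lists and pairs were chosen with earlier results of these data known. Named genes were the members, core paralogs, and the 3 highest and 2 lowest genes per kilobase of each PRC1 list. All 7 targets at 0 tie for lowest. Marker genes named were chosen after their values were seen. Some listed genes are not reported here. Alternatives were other scalings, lengths, filters and fit settings, and leaving out each library. Scaling to ERCC totals, taking shared words off the length, the other edgeR fit and the family shares were added after seeing the data. No protein sequences were used here. Software was R 4.3.3, edgeR 4.0.16, DESeq2 1.42.0 (size factors), Python 3.11.15, NumPy 2.4.6, SciPy 1.17.1 and pandas 2.3.3.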

Additional observations from a re-analysis of the deposited data

Results flagged for a closer look

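The ERCC spike-ins, synthetic RNAs that none of the comparisons used, were counted in every library and in unequal amounts. They made up 1.46%, 0.945% and 0.579% of gene and spike-in counts in libraries 1, 2 and 3, a 2.53-fold difference between the first and the last. The 95% intervals (exact, Clopper-Pearson) reach at most from 1.458 to 1.467%, in library 1, and cover counting error only. The labels do not state the amount added. Set against 10000 spike-in counts, Bmi1 was at 51.8, 64.8 and 109 counts, Pcgf5 at 24.2, 52.9 and 99.1 counts and Rnf2 at 39.7, 66.2 and 93.6 counts. On this scale 8 of 9 members were highest in library 3, all except Cbx8, and 9 of 9 had a range over 1.5-fold, as did 97.6% of all genes. The share of all genes highest in library 3 on this scale was not counted, so the 8 of 9 says nothing particular about PRC1. The library order of Bmi1, which was highest in library 1 in CPM, therefore turns with the scaling.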

How the results depend on the processing

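Mean levels moved by less than the SD between libraries for 9 of 9 members under TMM factors, DESeq2 size factors and ERCC totals. These scalings were centred on the geometric mean of the library totals, which by construction holds a mean over 3 libraries nearly in place. The small moves therefore say nothing about ratios between libraries. Mean levels also stayed within the SD with any library left out, but with 3 libraries that is so for any gene by construction. With totals without Rn45s, the ribosomal RNA precursor, each total was smaller and the mean of every member rose, that of Bmi1 to 74.5 CPM. By this measure 7 members stayed within their SD, while Cbx7 moved to 34.0 CPM and Rnf2 to 64.9 CPM. Those 2 had the smallest SD relative to the mean of the 9 members, at 8.92% and 7.31%, so passing it does not mark them as more sensitive to Rn45s. All 9 paralog differences kept their sign over the longest transcript, with a pseudocount of 0.5 CPM and with shared words taken off the length. Leaving out any library could not turn a sign, because each difference had the same sign in all 3 libraries. Over coding length 3 reversed (Pcgf1 minus Pcgf5 at -2.47, Pcgf5 minus Pcgf6 at 0.80, Cbx7 minus Cbx2 at 0.92), and with no length correction 2 did (-2.45 and 0.33 for the first pairs), by construction through the lengths. Leaving out 1 library gave between 6660 and 8709 genes, and between 5 and 8 members, past the chi-square test. It gave between 1 and 16 genes and no member past the edgeR test. Between 1 and 3 members then lay over 1.5-fold, against between 11.6% and 19.1% of all genes. With no filter on low counts edgeR called 16 genes, and the cause was not tested. ERCC totals put 9 members over 1.5-fold, as they did 97.6% of all genes, since the spike-in share itself differed 2.53-fold between libraries 1 and 3. Why that share differed was not tested. No paired analysis was possible because there is only 1 group. Depth limits Cbx8 most, with 38 counts in library 3.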
